A study of Homo sapiens with 2 samples.

Results

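The genes described here make and mature the cytokines of the IL-1 family, and were measured in CD90+ and CD90- cells of KYSE-140, an established human line of esophageal squamous cell carcinoma. They are 10 of the 19775 genes with a probe set of their own on the array: IL18, IL1A, IL1B, IL1RN, PYCARD, CASP1, CASP4, CASP5, CARD16 and GSDMD. The genes were listed by function, and every probe set annotated to any of them was taken, 23 in all. The list was chosen by function and also on the measured signals of both arrays, in which IL18 and CASP1 differed, so the differences below are a description. Total RNA of 1 CD90+ and 1 CD90- fraction, parted by flow cytometry, was hybridised to 1 Affymetrix U133 Plus 2.0 array each. Both fractions come from the same line, and the labels name no treatment. They differ by the sort for CD90, the surface glycoprotein encoded by THY1. With 1 array per fraction no spread between sorts can be estimated, so nothing could be tested, and a fold holds for these 2 RNA samples alone. In such bulk RNA, more cells that express a gene and more RNA per cell cannot be told apart.

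An inflammasome is a cytosolic complex in which a sensor protein recruits the adaptor ASC, the product of PYCARD, and through it pro-caspase-1. Active caspase-1 cuts the inactive precursors of IL-1 beta and IL-18, and it cuts gasdermin D, whose released part forms pores in the membrane through which the cytokines leave the cell. Caspase-4 and caspase-5 detect bacterial lipopolysaccharide inside the cell and also cut gasdermin D. Unlike IL-1 beta, the IL-18 precursor is made by many epithelial cells without a prior stimulus.

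In CD90+ cells the cytokine gene IL18, its processing enzyme gene CASP1 and the neighbouring gene CARD16 were at least 2-fold higher, while the adaptor PYCARD was under the floor on both arrays and the pore-forming GSDMD differed little. The floor, a signal of 71.6, was the middle signal of the arrays; values under it were set to it before a ratio was taken, and a gene counted as measured where its probe set was at or above the floor in either fraction. Of the 10 genes 8 were measured, IL1A and IL1RN through their CD90+ signal alone. In CD90+ cells 3 of these were higher by 2-fold or more, 0 were lower by as much and 5 lay between. Over all 12466 measured genes 2.47% passed 2-fold upwards and 1.75% downwards. Nothing is read from the difference between these shares, because the list was chosen with the same values known. The median log2 ratio, CD90+ over CD90-, was 0.88 over the 8 measured genes and 0.01 over all measured genes. Nothing is read from these medians either, for the same reason. The ratios of IL1A and IL1RN that enter the first are lower bounds, and the floor fixed their sign.

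**Figure D1:**
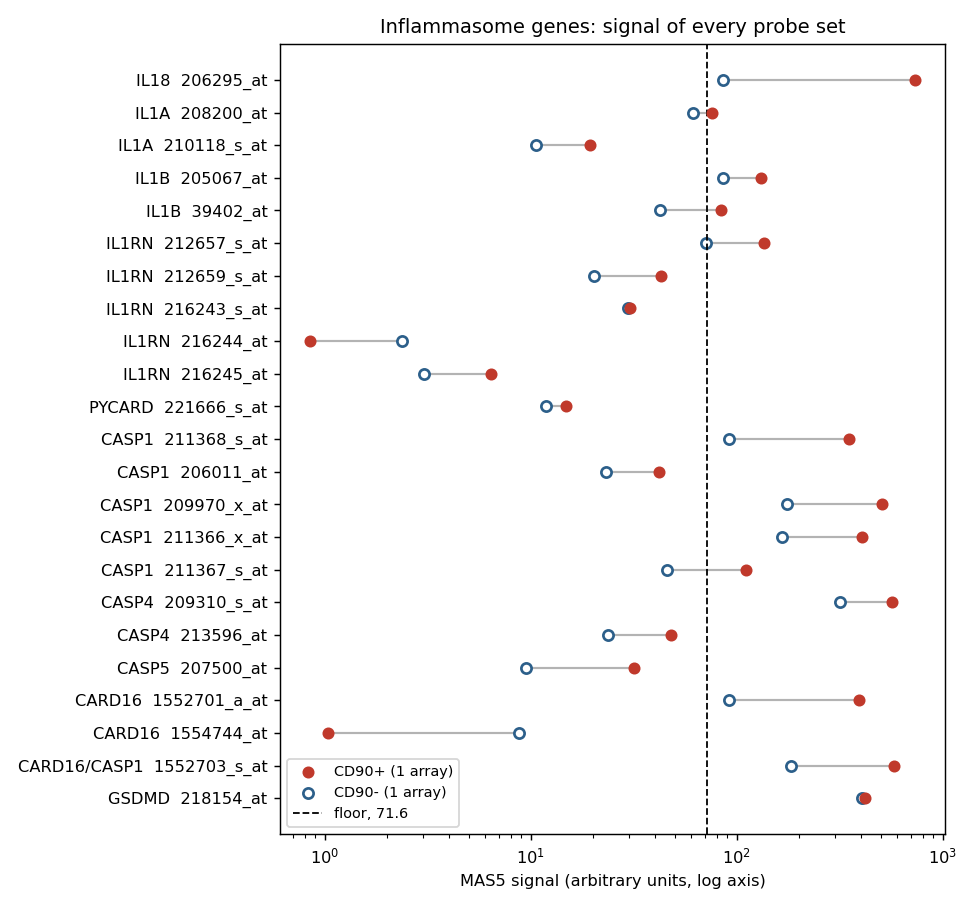
MAS5 signal (log axis) of the 23 probe sets of the 10 genes in CD90+ cells (filled) and CD90- cells (open), 1 array each, with the floor of 71.6 as a dashed line. IL18 and the CASP1 and CARD16 probe sets at the right have the widest gaps among those that reach the floor, GSDMD shows almost none, and PYCARD and CASP5 lie left of the floor on both arrays.

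IL18 encodes interleukin-18, which drives interferon gamma production in T and NK cells. Its 1 probe set, 206295_at, read 729 in CD90+ and 85.8 in CD90- cells. The CD90- signal was thus just above the floor and the CD90+ signal far above it. The fold was 8.50, a log2 ratio of 3.09, and ranked 7 from the top among the ratios of all measured genes. It rests on this probe set alone.

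IL1A and IL1B encode interleukin-1 alpha, released by damaged epithelial cells as an alarm signal, and interleukin-1 beta. Both were close to the floor. IL1B read 131 in CD90+ and 86.1 in CD90- cells on its brighter probe set, or 1.52-fold higher. Its other probe set read 84.1 in CD90+ and 42.4 in CD90- cells, at least 1.17-fold. For IL1A the brighter probe set read 76.2 in CD90+ and 61.1 in CD90- cells, at least 1.06-fold, and the second stayed under the floor on both arrays. Neither gene came near the difference seen for IL18.

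IL1RN encodes the IL-1 receptor antagonist, which occupies the IL-1 receptor without signalling. It read 135 in CD90+ and 71.2 in CD90- cells, at least 1.88-fold higher, just short of 2-fold. This was the 1 of its 5 probe sets that reached the floor on any array. The other probe sets read between 0.852 and 42.9 in CD90+ cells and between 2.36 and 29.6 in CD90- cells.

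The adaptor PYCARD has 1 probe set. It read 14.8 in CD90+ and 11.9 in CD90- cells, both under the floor, so no ratio was taken. A signal under the floor gives only a bound and does not show that the transcript was missing.

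CASP1, the gene of caspase-1, was higher in CD90+ cells on each of the 4 of its 5 probe sets that reached the floor. The probe set that stood for the gene, 211368_s_at, read 351 in CD90+ and 91.9 in CD90- cells, which is 3.83-fold higher. The others gave smaller differences. On 209970_x_at the signal was 506 in CD90+ and 175 in CD90- cells, 2.88-fold. On 211366_x_at it was 406 in CD90+ and 166 in CD90- cells, 2.45-fold. The dimmest of the measured ones, 211367_s_at, read 111 in CD90+ and 45.8 in CD90- cells, at least 1.55-fold. The log2 ratios of these 4 probe sets had a mean of 1.35 and an SD of 0.55, with the lower bound of 211367_s_at entered as a value. The pooled SD was 0.31 within the 6188 genes that had several measured probe sets. Without the floor 211367_s_at gave 2.42-fold, so the SD of 0.55 depends on the floor. The fifth, 206011_at, stayed under the floor with 41.8 in CD90+ and 23.1 in CD90- cells. The direction was thus shared by the probe sets, and how far their sizes differed depends on the floor.

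CARD16 encodes a protein that is little more than a caspase recruitment domain, close in sequence to that of caspase-1, and it can bind caspase-1 and hold back its activation. Its probe set 1552701_a_at read 390 in CD90+ and 92.2 in CD90- cells, 4.23-fold higher. A further probe set is annotated to CARD16 and CASP1 together and read 582 in CD90+ and 183 in CD90- cells, 3.18-fold. The remaining probe set of CARD16 read 1.04 in CD90+ and 8.75 in CD90- cells, under the floor on both arrays. Because the genes are close copies, signal from the transcripts of CASP1 and CARD16 cannot be fully told apart on this array. The probe sets of both that reached the floor are all of the _s_at, _a_at and _x_at classes, which match several transcripts.

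CASP4 was higher by less. Its brighter probe set read 568 in CD90+ and 316 in CD90- cells, 1.79-fold, and the second read 47.9 in CD90+ and 23.6 in CD90- cells, under the floor on both. CASP5 read 31.7 in CD90+ and 9.46 in CD90- cells on its 1 probe set and was not measured. Within the caspase group the differences therefore ran from CARD16 and CASP1, each above 3-fold on the probe set that stood for it, to CASP4, under 2-fold.

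GSDMD, the gene of gasdermin D, read 417 in CD90+ and 407 in CD90- cells, 1.02-fold. Across all 23 probe sets of the 10 genes the signal was higher in CD90+ cells on 21. It was higher on each of the 9 that were above the floor on both arrays and on 8 of the 10 under it on both. The other 4 reached the floor in CD90+ cells alone, so their direction was fixed by the floor. Of the 13 that reached the floor 6 differed by at least 2-fold: that of IL18, 3 of CASP1, 1 of CARD16 and the shared one. These counts take in several probe sets of the same gene. The shares over all probe sets of the array were not counted, so nothing is read from them.

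**Figure D2:**
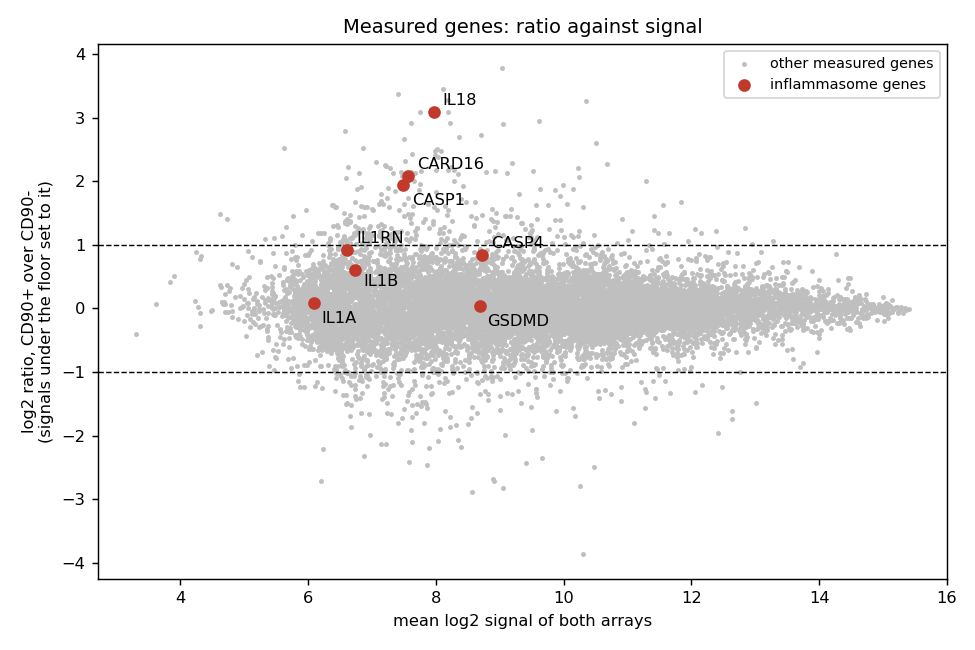
Log2 ratio, CD90+ over CD90- (vertical axis, signals under the floor set to it), against mean log2 signal of both arrays for the 12466 measured genes, with 2-fold differences as dashed lines. IL18 lies at 3.09, CARD16 at 2.08 and CASP1 at 1.94, above the upper line, and the other 5 measured inflammasome genes lie between the lines.

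The genes with signals most like those of IL18 were ETS1, a transcription factor gene, FSTL1, which encodes a secreted glycoprotein, and CPE, a carboxypeptidase gene. Likeness was the distance between log2 signals over the 2 arrays, and these genes lay at 0.30, 0.30 and 0.33. ETS1 read 631 in CD90+ and 73.9 in CD90- cells. Nearest to CASP1 were KLHDC8A at 0.11, LCN2, the gene of the iron-carrier binding protein lipocalin-2, at 0.14, and CARD16 at 0.15. LCN2 read 386 in CD90+ and 94.9 in CD90- cells, 4.07-fold higher. Over only 2 arrays many genes can lie this close, so the order is a description of signal values.

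IL18, CASP1, CASP4, CASP5 and CARD16 all lie on the long arm of chromosome 11, the caspase genes and CARD16 side by side and IL18 some way from them, whereas IL1A, IL1B and IL1RN lie together on chromosome 2. Among genes at or above the floor in both fractions, the 50 closest to the caspase cluster had a median log2 ratio of 0.17, and 35 of them had ratios above 0. Around IL18 the same median was 0.25, with 37 of 50 above 0. The log2 ratios of IL18, CARD16 and CASP1 were above both medians, but the genes were listed with such values known, so nothing is read from this. Around the IL1 cluster the same median was -0.29, with 9 of 50 above 0. IL1B, the 1 gene of that cluster above the floor on both arrays, was at 0.60. Over all measured genes the median was 0.01. Their share above 0 was not counted, so nothing is read from the counts above 0.

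The genes next to IL18 differed little. On its sides lie SDHD, a subunit gene of succinate dehydrogenase, at 4797 in CD90+ and 5091 in CD90- cells, and BCO2, a carotenoid-cleaving enzyme gene, at 73.3 in CD90+ and 74.5 in CD90- cells. TIMM8B, a mitochondrial import gene, was the most different of the 5 measured genes before it, with 6991 in CD90+ and 4545 in CD90- cells. Of the 2 genes on the sides of IL18, SDHD was well above the floor and did not share its difference. BCO2 was near the floor on both arrays. The cause of the IL18 difference was not tested. Beside the caspase cluster, DYNC2H1, a ciliary dynein gene, read 135 in CD90+ and 93.7 in CD90- cells. On the other side MSANTD4 read 678 in CD90+ and 625 in CD90- cells. Further out on the first side lie the collagenase gene MMP1, at 746 in CD90+ and 38.8 in CD90- cells, and the stromelysin gene MMP10, at 1164 in CD90+ and 265 in CD90- cells. On the second side the guanylate cyclase subunit gene GUCY1A2 went the other way, with 221 in CD90+ and 651 in CD90- cells. The cluster thus sits among genes of both directions.

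Next to the IL1 cluster CKAP2L, a mitotic spindle gene, read 328 in CD90+ and 255 in CD90- cells. On its other side PSD4, an exchange factor gene for ARF6, read 193 in CD90+ and 381 in CD90- cells, 1.98-fold lower.

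**Figure D3:**
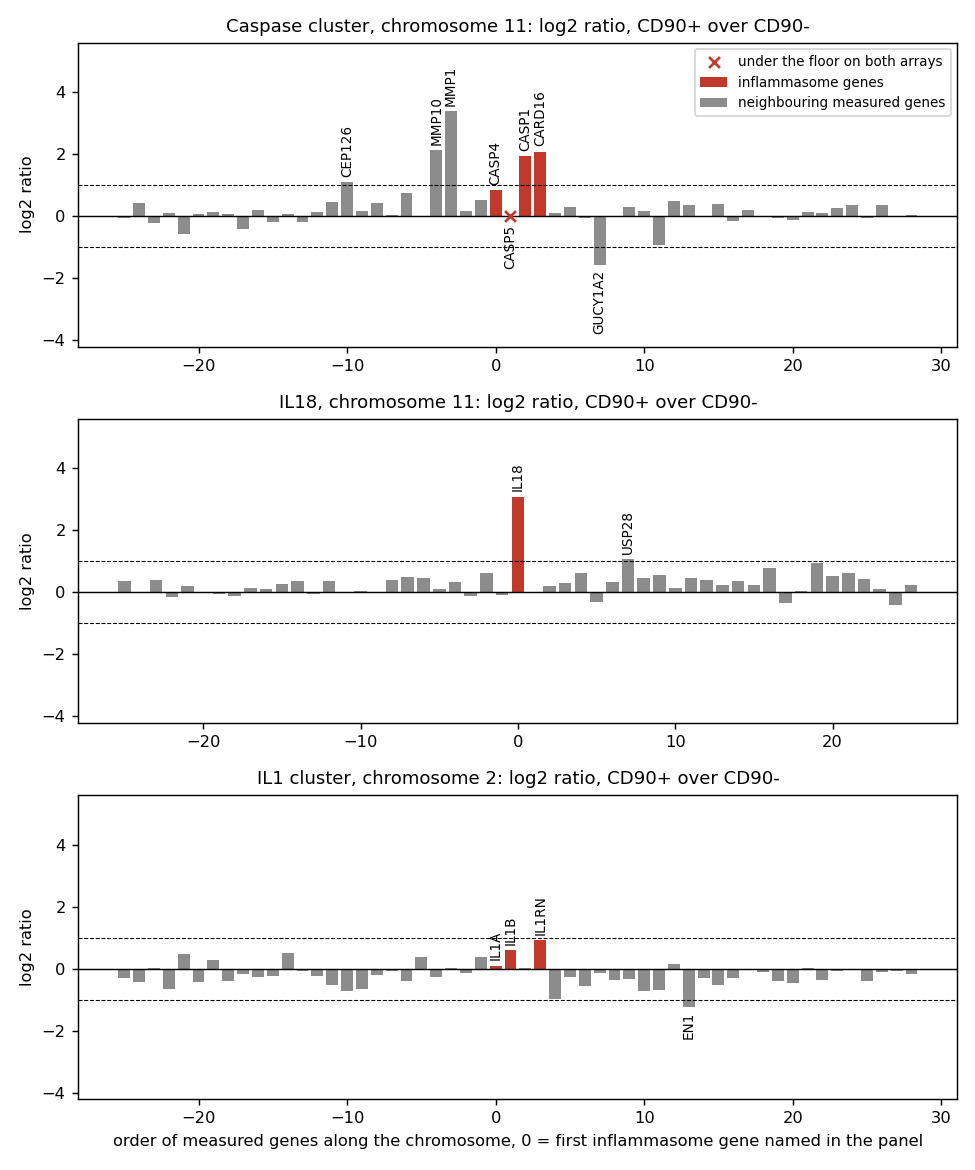
Log2 ratio, CD90+ over CD90-, of measured genes in their order along the chromosome around the caspase cluster, IL18 and the IL1 cluster, with 0 on the horizontal axis at the first inflammasome gene of each panel. IL18 stands at 3.09 with its adjoining genes near 0, CASP1 (1.94) and CARD16 (2.08) stand side by side with CASP4 (0.84), and CASP5 is marked by a cross because it was under the floor on both arrays.

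RefSeq promoter windows, 250 bases before to 50 bases after a transcript start in GRCh38.p14, were matched for 6 of the 10 genes (CASP4, CASP5, IL1A, IL1B, IL1RN and PYCARD), 9 windows in all. Those of the inflammatory caspases are shown because CASP4 was above the floor and its neighbour CASP5 was not, and that of IL1RN because the gene had the highest ratio among those with a window. Capitals mark matches, on either strand, to the letters GAAA and GAAA with any 2 bases between (the core of the interferon-stimulated response element), to TTCNNNGAA (the core of a STAT site, which reads alike on both strands), and to GGG and TTTCC with any 2 bases between (an NF-kB site core).
CASP4, chr11:104968525-104968824, minus strand: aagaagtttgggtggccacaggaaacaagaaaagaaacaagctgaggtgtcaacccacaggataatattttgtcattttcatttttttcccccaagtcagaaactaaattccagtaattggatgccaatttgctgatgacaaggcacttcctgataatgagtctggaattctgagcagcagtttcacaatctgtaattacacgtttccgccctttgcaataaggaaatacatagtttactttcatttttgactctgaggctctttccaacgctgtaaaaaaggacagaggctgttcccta
CASP5, chr11:105023119-105023418, minus strand: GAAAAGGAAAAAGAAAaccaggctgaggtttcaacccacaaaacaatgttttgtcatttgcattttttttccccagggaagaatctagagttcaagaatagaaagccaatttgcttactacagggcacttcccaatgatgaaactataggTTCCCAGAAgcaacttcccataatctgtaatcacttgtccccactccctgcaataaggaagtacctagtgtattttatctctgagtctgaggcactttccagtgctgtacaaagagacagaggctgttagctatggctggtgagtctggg
IL1RN, chr2:113127239-113127538, plus strand: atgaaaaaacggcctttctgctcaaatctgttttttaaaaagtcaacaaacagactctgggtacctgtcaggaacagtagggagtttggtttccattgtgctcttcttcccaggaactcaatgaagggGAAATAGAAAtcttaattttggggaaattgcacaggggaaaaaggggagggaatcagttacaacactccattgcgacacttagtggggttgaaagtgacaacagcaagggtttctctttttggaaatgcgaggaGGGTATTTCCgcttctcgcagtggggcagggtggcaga

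In the CASP4 window none of the 3 motifs was found. The CASP5 window held overlapping copies of the interferon element letters at its first bases and 1 STAT core. The IL1RN window held 1 interferon element and 1 NF-kB core. A second IL1RN window overlaps this stretch and holds the same pair, and the remaining one held no match. Of the remaining windows that of IL1B held 1 STAT core, and those of IL1A and PYCARD none. Among all 35116 promoter windows 3.57% held the interferon element letters, 7.66% the STAT core and 1.91% the NF-kB core. In a global alignment the CASP4 and CASP5 windows shared 222 identical bases of 275 aligned, against 150 to 184 identical bases for the other 31 pairs of windows from different genes. A match describes letters and not a bound site, and no factor's binding was measured here.

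The wider pathway was described with 8 lists of genes, which hold 87 further genes with a probe set, 53 of them measured. In CD90+ cells 4 of them passed 2-fold upwards and 3 downwards, with a median log2 ratio of 0.04, against 2.47% and 1.75% and a median of 0.01 over all measured genes. The lists were drawn up with results of these arrays known.

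Of 24 sensor and detector genes 12 were under the floor on both arrays, or 50%, against 37.0% of the 19775 genes, among them (picked with their values known) the classical sensor genes NLRP3 (30.3 in CD90+ and 4.12 in CD90- cells), AIM2 (23.4 in CD90+ and 46.6 in CD90- cells) and NLRC4 (2.66 in CD90+ and 38.4 in CD90- cells). Of the 12 measured 2 were at least 2-fold higher and 0 lower, and the list median was -0.01. Of these 12, 3 were measured through their CD90+ signal alone, GBP1 among them, which fixed the sign of their ratios. None (0) was measured through its CD90- signal alone. The measured ones included, also picked with their values known, the sensor genes NLRP1 and CARD8. NLRP1 read 74.0 in CD90+ and 92.3 in CD90- cells, and 61.8 in CD90+ and 112 in CD90- cells on its other measured probe set. CARD8 read 277 in CD90+ and 304 in CD90- cells. TXNIP, a thioredoxin inhibitor that can bind NLRP3, read 1016 in CD90+ and 374 in CD90- cells, 2.72-fold higher, but its 3 measured probe sets had log2 ratios from 0.31 to 1.44. GBP1, an interferon-inducible GTPase that coats bacteria in the cytosol, read 160 in CD90+ and 47.8 in CD90- cells, at least 2.23-fold higher. Its other measured probe set read 73.0 in CD90+ and 41.7 in CD90- cells, barely above the floor in CD90+ cells. The log2 ratio of 0.03 there is thus a lower bound. By the mean of its measured probe sets neither TXNIP nor GBP1 was at least 2-fold higher, but for GBP1 that mean is of lower bounds. The DNA sensor IFI16, also singled out afterwards, read 4890 in CD90+ and 3523 in CD90- cells, 1.39-fold, and its 3 probe sets had log2 ratios from 0.47 to 0.88.

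CASP1 was the 1 gene of 7 measured in the caspase list at least 2-fold higher, 0 were lower, and the median was -0.16. The other measured caspase genes, given after their values were seen, were CASP2, CASP6, CASP8 and CASP9, at log2 ratios between -0.25 and -0.16, and CASP10, at 0.54. CASP2 was lower on each of its 5 measured probe sets, with log2 ratios down to -1.04 on a dim one that read 87.0 in CD90+ and 179 in CD90- cells. In the list of CARD-only, pyrin-only and other caspase-1 inhibitors CARD16 was the 1 of 3 measured genes at least 2-fold higher, and 0 were lower, with a median of 0.03.

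Gasdermins went both ways. Of 7 measured genes in their list 1 was at least 2-fold higher and 1 lower, with a median of 0.04. GSDME, which caspase-3 cuts, read 3647 in CD90+ and 1823 in CD90- cells, 2.00-fold higher and so at the threshold itself. GSDMC read 260 in CD90+ and 539 in CD90- cells, 2.07-fold lower. GSDMD lay between them at 1.02-fold, as given above.

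Among IL-1 family ligands and antagonists IL18 was the 1 of 6 measured genes at least 2-fold higher and 0 were lower, with a median of 0.50. IL1A, IL1RN, IL18BP and IL1F10 were counted as measured through their CD90+ signal alone, which fixed the sign of those 4 ratios, and IL37 was under the floor on the probe set that stood for it and at a log2 ratio of -0.03 on another. IL18BP, the secreted inhibitor that binds IL-18, singled out after its value was seen, read 94.5 in CD90+ and 19.6 in CD90- cells, and its 3 measured probe sets went both ways, with log2 ratios from -0.16 to 0.40. Of the IL-1 family receptors 5 of 10 were measured, 0 were beyond 2-fold either way, and the median was 0.20. SIGIRR, a receptor that dampens signalling, read 500 in CD90+ and 432 in CD90- cells. IL1RAP, the shared signalling chain, read 402 in CD90+ and 317 in CD90- cells, with log2 ratios of 0.34 and 0.91 on its 2 measured probe sets. The genes of the IL-18 receptor, picked with their values known, were dim: IL18R1 read 63.1 in CD90+ and 110 in CD90- cells, at least 1.54-fold lower, and IL18RAP was under the floor on both arrays, as was the IL-1 receptor gene IL1R1.

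Of 11 measured genes of receptor signalling 0 were at least 2-fold higher and 1 lower, with a median of 0.10. That gene was PELI1, a ubiquitin ligase of the Toll-like and IL-1 receptor pathways, with 648 in CD90+ and 2087 in CD90- cells, 3.22-fold lower, and its 3 measured probe sets had log2 ratios from -1.69 to -1.25. The adaptor MYD88, singled out after its value was seen, read 1346 in CD90+ and 1201 in CD90- cells. Of 10 measured transcription factors 1 was at least 2-fold higher, ETS1 (8.54-fold), and 1 lower, the repressor BCL6 (2.03-fold, 447 in CD90+ and 908 in CD90- cells), with a median of 0.04. The second probe set of BCL6 had a log2 ratio of -0.04. IRF1, an interferon-responsive factor singled out after its value was seen, read 235 in CD90+ and 197 in CD90- cells, 1.19-fold.

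**Figure D4:**
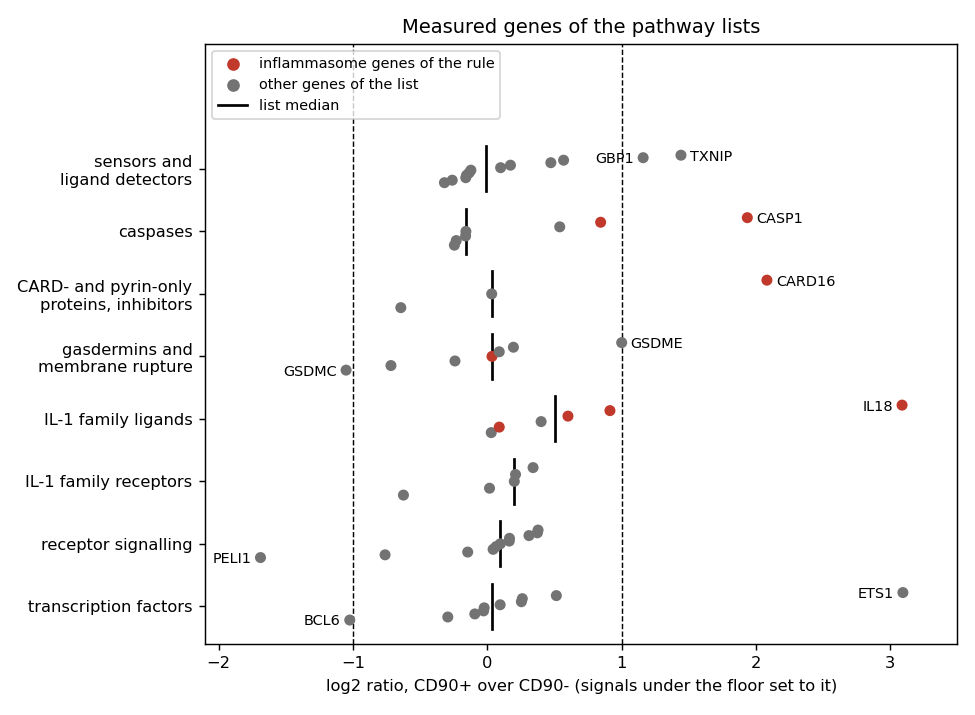
Log2 ratio, CD90+ over CD90-, of each measured gene in 8 pathway lists, with the genes of the inflammasome list in red, list medians as vertical bars and 2-fold differences as dashed lines. IL18, ETS1, CARD16, CASP1, TXNIP, GBP1 and GSDME lie at or beyond the upper line, PELI1, GSDMC and BCL6 beyond the lower, and every list median lies between -0.16 and 0.50.

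The sort and the cell type were checked on the same arrays. THY1 read 293 in CD90+ and 78.9 in CD90- cells, 3.72-fold higher and in the direction of the sort. The 7 squamous keratinocyte markers with a probe set were all well above the floor, with KRT5 at 19357 in CD90+ and 19208 in CD90- cells. The others went both ways on the probe sets that stood for them. Log2 ratios of the 7 ran from -0.43 for PKP1 to 0.52 for KRT14, with a median of 0.01. Leukocytes also express many of the genes described here. Of 11 leukocyte markers 8 were under the floor on both arrays, with PTPRC at 20.6 in CD90+ and 44.0 in CD90- cells, CD14 at 6.72 in CD90+ and 4.62 in CD90- cells and LYZ at 4.60 in CD90+ and 2.67 in CD90- cells. The summed signal of the 11 was 473 in CD90+ and 398 in CD90- cells. Of the 3 that reached the floor CD163 read 169 in CD90+ and 129 in CD90- cells. AIF1 read 73.6 in CD90+ and 13.6 in CD90- cells and ITGAM 72.4 in CD90+ and 35.1 in CD90- cells, both barely above the floor in CD90+ cells and under it in CD90- cells, so their ratios are bounds that could not reach 2-fold. Of 9 fibroblast markers 6 were under the floor on every probe set. COL1A1 read 2125 in CD90+ and 1240 in CD90- cells, and its 3 measured probe sets had log2 ratios from 0.69 to 1.01. FN1, the fibronectin gene, was under the floor on the probe set that stood for it, but 3 others reached the floor on 1 array each. The highest of these read 151 in CD90+ and 20.9 in CD90- cells, at least 2.11-fold higher, and another read 21.6 in CD90+ and 79.2 in CD90- cells, at least 1.11-fold lower. Of 5 endothelial markers 4 were under the floor. The part of leukocyte, fibroblast and endothelial transcripts in these results was not tested.

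**Figure D5:**
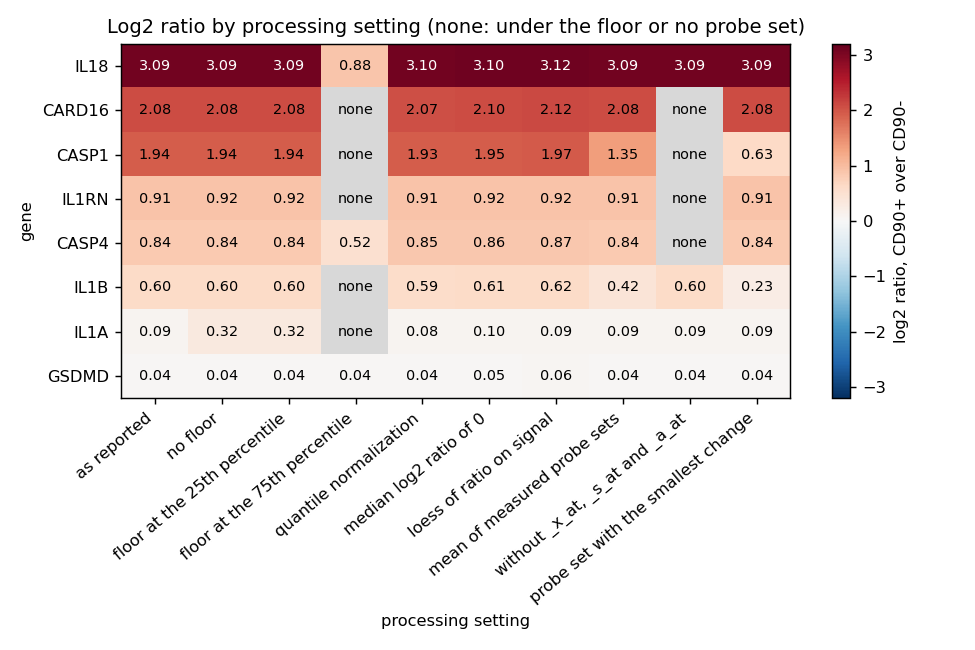
Log2 ratio, CD90+ over CD90-, of the 8 measured genes (rows) in the reported setting and under 9 other processing settings (columns), where none marks a gene with no value. IL18 stays near 3.09 except with the floor at the 75th percentile, where it is 0.88. CASP1 runs from 0.63, a lower bound, by its least changed probe set to 1.97 with loess.

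With the floor raised to the 75th percentile of signals, 397, the CD90- signal of IL18 fell under it and the fold became a lower bound with a log2 ratio of 0.88, while CASP1 and CARD16 had no value. By its least changed measured probe set CASP1 had a log2 ratio of 0.63, under 2-fold.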

How the data were processed

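The data were 1 array of CD90+ and 1 of CD90- KYSE-140 cells, told apart by the sorted population in the labels. The authors made the values with MAS5, per the submitters' processing notes. This algorithm sums up matched and mismatched probes as 1 value per probe set. Its version is not given in the sources here. The deposited table holds linear signal intensity values of 54675 probe sets, all above 0, and both arrays had a trimmed mean (2 to 98%) of 499.9, so they had been scaled alike. Subtraction of mismatch signal makes ratios of dim probe sets noisy. The number of arrays limits the precision.

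Probe sets were named by the platform annotation, updated through gene identifiers to the RefSeq table of GRCh38.p14: 41097 had 1 symbol (41043 identifiers matched), 1801 had several and 11777 were unnamed here. The 62 control probe sets were left out. The floor of 71.6 was the geometric mean of the 2 array medians, and ratios are log2, CD90+ over CD90-. The probe set with the highest mean log2 signal stood for a gene, an _x_at one only where no other existed. A 2-fold difference was counted; there is no test. The members and lists were chosen with earlier results of these data known. Named were the 10 genes, THY1, up to 4 genes of a list that passed 2-fold in each direction (failing any, its 2 brightest), the 3 genes nearest IL18 and CASP1 in signal, and neighbours in gene order; others are said to be singled out. A planned protein comparison was not made. The ratio step was tested on simulated data. There the changes were planted in genes with signals well above the floor, so the test does not cover a CD90- signal near it, such as that of IL18. Tools were Python 3.11.15, numpy 2.4.6, pandas 2.3.3, statsmodels 0.14.6 and Biopython 1.88. Alternatives were a floor at the 75th or the 25th percentile or none, quantile scaling, centring on a median ratio of 0, loess with a span of 0.3, and 3 other choices of probe set.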

Additional observations from a re-analysis of the deposited data

How the results depend on the processing

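No paired analysis was possible because each fraction has 1 array. Under 9 alternatives, 255 of 309 values stayed within the pooled probe set SD of 0.31 (log2 ratios) or within 1.5 times (counts), 54 moved and 0 reversed. With the floor at the 75th percentile (397) log2 ratios were 0.88 for IL18 and 0.52 for CASP4, as the higher floor itself lowers them, and IL1A, IL1B, IL1RN, CASP1, CARD16, GBP1 and THY1 had no value. There 0 of the inflammasome genes, and 89 of all measured genes, were at least 2-fold higher and 66 lower. Higher genes numbered 1 among sensors and 0 among caspases, caspase-1 inhibitors, ligands and transcription factors, with 0 gasdermins lower. With the floor at the 25th percentile 1122 genes were higher and 835 lower. Higher genes then numbered 2 among caspase-1 inhibitors, 2 among ligands, 1 in receptor signalling and 2 among transcription factors. Lower genes numbered 2 among sensors, 1 among caspase-1 inhibitors, 1 among ligands and 2 in signalling. Without a floor 541 were higher and 381 lower, with 2 ligands higher, and 1 gene among caspase-1 inhibitors and 2 signalling genes lower. Without the _x_at, _s_at and _a_at classes IL18 was the 1 inflammasome gene at least 2-fold higher, as CASP1, CARD16, CASP4 and IL1RN had no value. Higher genes in that setting numbered 1 among sensors and 0 among caspases, caspase-1 inhibitors and gasdermins, with 0 gasdermins lower. By the least changed probe set CASP1 was at 0.63 and IL1B at 0.23, both lower bounds. In that setting 143 of all genes were lower, and 0 sensors and 0 caspases were higher. By the mean of probe sets, with lower bounds entered as values, CASP1 was at 1.35 and 0 sensors were higher. No transcription factor (0) was at least 2-fold lower under quantile normalization, loess, the mean or the least changed probe set. The cause of the shifts between probe sets was not tested. Nearness to the floor limits IL1A, IL1B, IL1RN and the CD90- signals of IL18, CASP1 and CARD16.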
